A study of Mus musculus with 8 samples.

Results

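A set of 10 genes expressed by macrophages and other leukocytes was followed through single hearts of mouse embryos at E10.5: Coro1a, Ptprc, Csf1r, Tyrobp, Fcer1g, Laptm5, Cx3cr1, Aif1, Spi1 and Cd68. Every probe set that the array annotation assigned to these symbols or their synonyms was taken, which gave 17 of 22690 probe sets. A probe set is the group of oligonucleotides on the array that measures 1 transcript. Of the 8 hearts, 4 were homozygous for the inactive Dbh allele (Dbh-/-, called KO here) and 4 were Dbh+/+ (WT). Dbh encodes dopamine beta-hydroxylase, the enzyme that makes noradrenaline from dopamine. The embryos had been matched for age and size and checked for viability by ultrasound before dissection, and each Affymetrix Mouse 430A 2.0 array held total RNA of 1 heart. No promoter-driven Cre, drug or other allele is named in the labels, and the strain and the build of the Dbh allele are not given in the sources used here. The sample titles carry numbers that the labels leave unexplained: 541 for KO 3, KO 4, WT 3 and WT 4, 569 for KO 1, KO 2 and WT 2, and 570 for WT 1. The comparison asks whether hearts without Dbh hold a different level of leukocyte transcripts.

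Macrophages reach the embryonic heart from the yolk sac early in development and settle among the muscle and the inner lining before the bone marrow makes blood. CSF1R is the receptor through which these cells receive the growth factors that keep them alive, and the transcription factor PU.1, the product of Spi1, switches on much of the myeloid programme, Csf1r included. Surface receptors without a signalling tail of their own pair with the small adaptors encoded by Tyrobp and Fcer1g, whose tyrosine motifs recruit the kinase SYK. In RNA from a whole heart, fewer cells of a type and less RNA per cell cannot be told apart.

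The array checks touch every later value. Dbh itself was called Absent on all 8 arrays, with signals of 0.222 to 6.31 in KO hearts and 0.606 to 10.9 in WT hearts, so at this level the array does not check the genotype labels. The 11 heart muscle markers were all measured, with summed signals of 24720 to 46860 in KO hearts and 27060 to 48480 in WT hearts. WT 3 stood apart from the other hearts: its 9 liver and endoderm markers on the array summed to 10070, against 129.3 to 186.4 in KO hearts and at most 147.0 in the other WT hearts. Its signal for Myh7, a myosin heavy chain of the ventricles, was 305.9, against 2431 to 4836 in the other 7 hearts. Differences of the 7 tested genes, and of the list genes whose call it changed, are therefore given with and without it.

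Across the 10 genes, no difference between KO and WT hearts passed the test with all 8 hearts, and hearts of the same genotype differed widely from each other. Detection by MAS5, which calls each probe set Present, Marginal or Absent on each array, divided the genes. Coro1a and Laptm5 were Present in all 8 hearts, Csf1r, Tyrobp and Fcer1g in 7, Cd68 in 4 and Ptprc in 3. Cx3cr1, Aif1 and Spi1 were Present in at most 1 heart by every probe set. Tests were run on probe sets Present in at least 3 hearts, which left 7 of the 10 genes and 10 of their 17 probe sets among 16292 tested. Under limma with Benjamini-Hochberg adjustment over all of these, 0 of the 7 genes were called at an adjusted p under 0.05, where the share called over all probe sets was 0.00%. At an unadjusted p under 0.05 the count was 0 of 7, against 1.33% of all probe sets (217). The signals of the 2 genotypes overlapped for all 17 probe sets, while 0.454% of all tested probe sets had groups that did not overlap. After quantile normalization, 0 genes were called (0.00% of all probe sets), 0 of the 10 tested probe sets passed an unadjusted p under 0.05 (2.15% of all), and 1, the dimmer Csf1r probe set, had groups that did not overlap (1.50% of all).

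**Figure D1:**
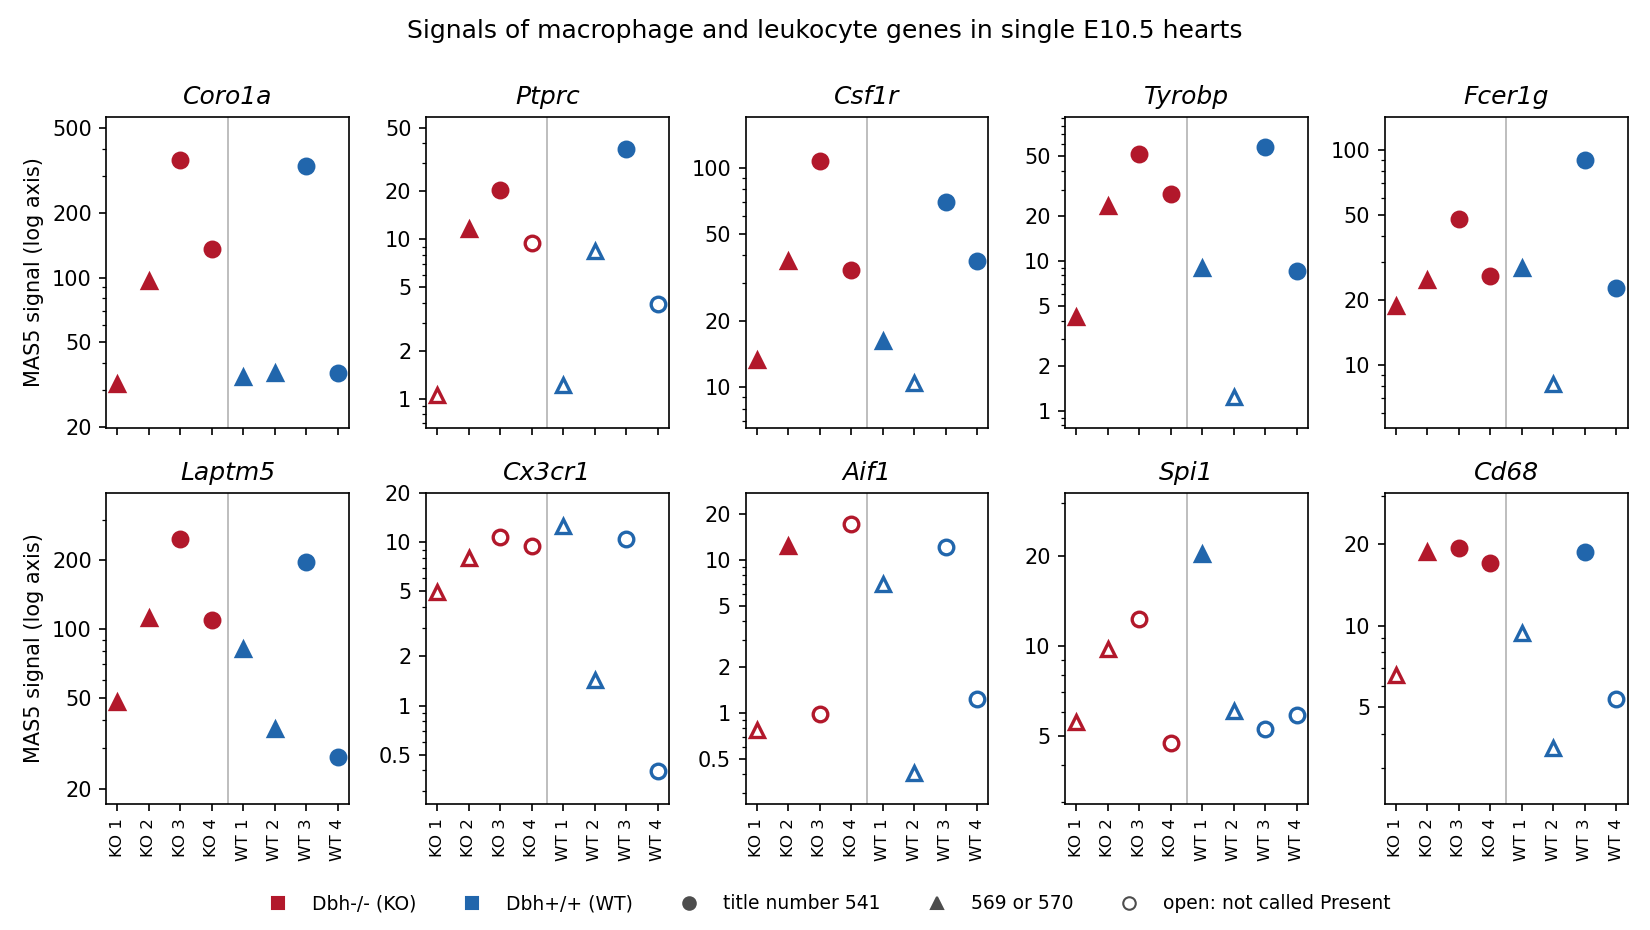
MAS5 signal (vertical log axes, each gene on its own scale) of the brightest tested probe set of each gene, or of its brightest probe set where none was tested, in the 4 KO hearts (red) and 4 WT hearts (blue). Circles are hearts with title number 541, triangles those with 569 or 570, and open symbols were not called Present. For Coro1a, KO 3 at 353.6 and WT 3 at 332.5 lie far above the other 3 WT hearts, which lie between 34.5 and 35.8.

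Coro1a encodes coronin 1A, an actin-binding protein of leukocytes. Its brighter probe set (1416246_a_at) had signals of 31.9, 96.1, 353.6 and 136.3 in KO 1 to KO 4, against 34.5, 35.8, 332.5 and 35.7 in WT 1 to WT 4. KO 2, KO 3, KO 4 and WT 3 were thus high, and KO 1 and the other WT hearts were low. The means were 154.5 ± 139.5 in KO hearts and 109.6 ± 148.6 in WT hearts (SD, n = 4 each). On the log2(signal + 16) scale, which understates the change of dim genes, the difference of KO minus WT was 0.67 with a standard error of 0.48 and a 95% interval of -0.30 to 1.64 (limma, unadjusted p = 0.168, adjusted p = 1). A second probe set (1455269_a_at) gave 28.9, 96.2, 327.1 and 145.5 in KO hearts, against 22.53, 23, 376.4 and 24.25 in WT hearts. The same hearts were high and low in both, with a correlation of 0.994 over the 8 hearts between the 2 probe sets, which share the RNA. Its difference was 0.89 with a standard error of 0.51 (limma, unadjusted p = 0.0922, adjusted p = 1). The third probe set of the gene was Absent in all 8 hearts.

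Leaving out WT 3 changed the call for Coro1a and for no other of the 7 genes. The difference was then 1.36 by the brighter probe set (limma, adjusted p = 0.0129) and 1.72 by the second (adjusted p = 0.000227), in a fit that called 72 of 16292 probe sets, or 0.442%. By the brighter probe set KO 1, at 31.9, still lay below the 3 remaining WT hearts. By the second, KO 1 at 28.9 lay above them, so its groups did not overlap, as for 1 of the 10 tested probe sets of these genes and 1.45% of all. That fit took the spread of each probe set almost wholly from the trend over all probe sets. The other omissions moved the brighter probe set's difference too: it was 1.16 without KO 1, 0.17 without KO 3, and 0.43 to 0.44 without WT 1, WT 2 or WT 4. With the arrays quantile normalized and WT 3 left out, the difference was 1.28 and the adjusted p was 0.864, with 0 probe sets called (756 at an unadjusted p under 0.05). Without KO 1, the other heart whose omission gave calls, 0 of the 7 genes, by their brightest probe sets, were among the 30 probe sets called (0.184%). With the title number as a block, 0 of the 7 were among 40 (0.246%).

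Ptprc encodes CD45, the receptor tyrosine phosphatase on the surface of nearly all leukocytes. It was called Present only in KO 2, KO 3 and WT 3, with signals of 1.06, 11.6, 20.5 and 9.50 in KO hearts and 1.23, 8.42, 36.7 and 3.90 in WT hearts. The highest heart was WT 3, and the lowest was KO 1. The means were 10.7 ± 7.98 in KO hearts and 12.6 ± 16.4 in WT hearts (SD, n = 4 each), a log2 difference with a size under 0.01, a standard error of 0.27 and an adjusted p of 1 by limma. Its sign turned positive, at 0.34, without WT 3.

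Csf1r was Present in 7 hearts by its brightest probe set (1419872_at). Its signals were 13.4, 37.6, 106.6 and 34.2 in KO hearts, against 16.3, 10.51, 69.6 and 37.5 in WT hearts. KO 3 was the highest and WT 3 the next, while WT 2 was the lowest and not called Present. The means were 47.9 ± 40.6 in KO hearts and 33.5 ± 26.7 in WT hearts (SD, n = 4 each), with a log2 difference of 0.33, a standard error of 0.34 and an adjusted p of 1 by limma. The difference was 0.64 without WT 3 and -0.05 without KO 3. A dimmer probe set (1423593_a_at), Present in 3 hearts, had signals of 7.88, 8.17, 16.46 and 11.24 in KO hearts, against 14.43, 14.32, 22.65 and 15.45 in WT hearts. KO 3 was the only KO heart above any WT heart, and after quantile normalization it too lay just below the lowest, at 4.87 in KO 3 against 4.88 in WT 1 on the log2 scale. This probe set averaged 10.9 ± 3.99 in KO hearts and 16.7 ± 3.99 in WT hearts, a log2 difference of -0.28 with a standard error of 0.21. The 2 tested probe sets thus differed in sign and correlated at 0.51 over the 8 hearts, so the array gives no single answer for this receptor. Another probe set (1419873_s_at), Present only in KO 2 and KO 3, was not tested. It averaged 17.1 ± 12.1 in KO hearts and 13.6 ± 4.47 in WT hearts. Csf1, which encodes a ligand of the receptor, averaged 29.5 ± 9.64 in KO hearts and 32.1 ± 4.22 in WT hearts, a log2 difference of -0.10 with a standard error of 0.24.

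Cx3cr1, the receptor of fractalkine on macrophages and monocytes, was never called Present by its brightest probe set. The signals were 4.93, 8.04, 10.7 and 9.47 in KO hearts, against 12.5, 1.44, 10.46 and 0.400 in WT hearts. All lie at the low end of the array, where the order of hearts carries little information. The other probe set (1450019_at), Present only in WT 1, averaged 4.70 ± 4.82 in KO hearts and 7.86 ± 4.84 in WT hearts.

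Tyrobp encodes DAP12, the adaptor of TREM and many other myeloid receptors. Its signals were 4.25, 23.2, 51.9 and 27.9 in KO hearts, against 9.02, 1.24, 57.5 and 8.58 in WT hearts. WT 3 and KO 3 were again the highest, and the other 3 WT hearts and KO 1 the lowest. The means were 26.8 ± 19.6 in KO hearts and 19.1 ± 25.9 in WT hearts (SD, n = 4 each), with a log2 difference of 0.40, a standard error of 0.33 and an adjusted p of 1 by limma. The difference was 0.84 without WT 3 and 0.14 without KO 3 or WT 2, and none of these was called.

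Fcer1g encodes the common gamma chain of Fc receptors, which carries the same kind of tyrosine motif. Its signals were 18.8, 24.9, 47.9 and 26.02 in KO hearts, against 28.15, 8.185, 89.4 and 22.8 in WT hearts. WT 3 was the highest and KO 3 the next, and WT 2 was the lowest and not called Present. The means were 29.4 ± 12.7 in KO hearts and 37.1 ± 35.9 in WT hearts (SD, n = 4 each), with a log2 difference of -0.05, a standard error of 0.31 and an adjusted p of 1 by limma. Without WT 3 the difference was 0.35.

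Laptm5 encodes a lysosomal membrane protein of blood cells. Its brightest probe set (1436905_x_at) had signals of 47.7, 112.3, 247.2 and 109.8 in KO hearts, against 82.1, 36.65, 196.4 and 27.4 in WT hearts. KO 3 and WT 3 were the highest, WT 4 and WT 2 the lowest. The means were 129.3 ± 84.1 in KO hearts and 85.65 ± 77.6 in WT hearts (SD, n = 4 each), with a log2 difference of 0.63, a standard error of 0.39 and an adjusted p of 1 by limma (unadjusted p = 0.119). A second probe set (1426025_s_at) gave 17.9, 29.1, 47.5 and 39.3 in KO hearts, against 15.0, 20.3, 43.2 and 5.83 in WT hearts, a log2 difference of 0.47 with a standard error of 0.27. The difference of the first was 1.08 without WT 3, 0.96 without KO 1, 0.41 without WT 2, 0.31 without WT 4 and 0.28 without KO 3, and none of these was called. Both probe sets leaned the same way, and they correlated at 0.893 over the 8 hearts.

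Cd68 encodes macrosialin, a glycoprotein of late endosomes and lysosomes of macrophages. It was Present in KO 2, KO 3, KO 4 and WT 3. Its signals were 6.56, 18.7, 19.2 and 16.95 in KO hearts, against 9.385, 3.53, 18.7 and 5.365 in WT hearts. KO 1 lay below WT 1, which was the second highest of the WT hearts, so the groups overlapped. The means were 15.4 ± 5.94 in KO hearts and 9.25 ± 6.76 in WT hearts (SD, n = 4 each), with a log2 difference of 0.33, a standard error of 0.23 and an adjusted p of 1 by limma. Without WT 3 the difference was 0.49.

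Aif1, which encodes the calcium-binding protein IBA1 of macrophages and microglia, was called Present only in KO 2. Its signals were 0.776, 12.4, 0.987 and 17.2 in KO hearts, against 6.96, 0.409, 12.2 and 1.24 in WT hearts. Spi1 was called Present only in WT 1, with signals of 5.57, 9.74, 12.3 and 4.75 in KO hearts, against 20.3, 6.05, 5.27 and 5.89 in WT hearts. Neither gene was tested.

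**Figure D2:**
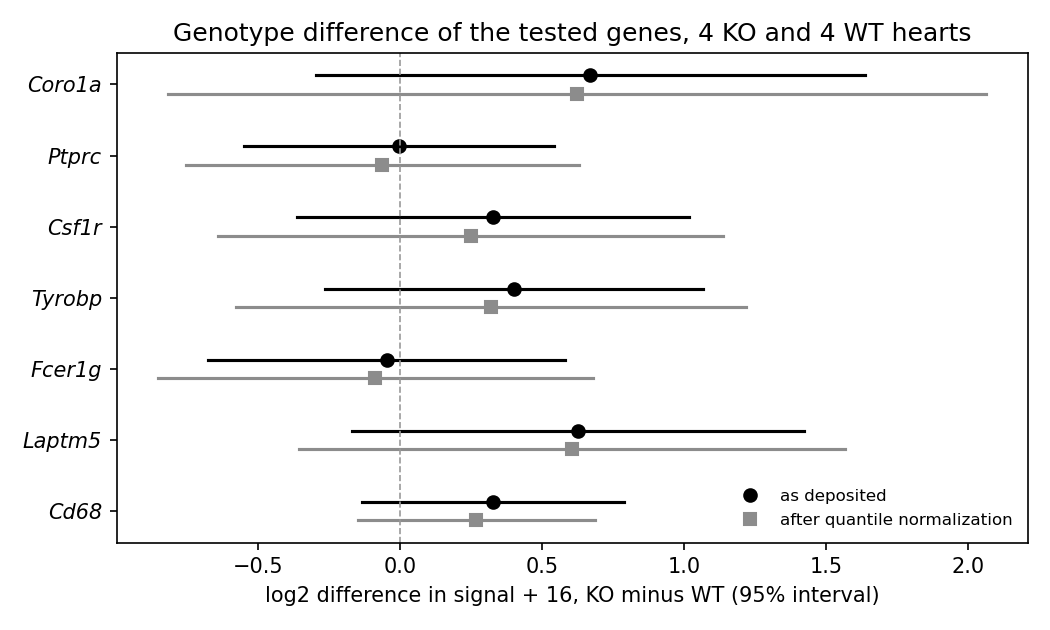
Log2 difference of KO minus WT (horizontal axis) for each tested gene by its brightest tested probe set, with the 95% interval of the fit, for the signals as deposited and after quantile normalization. Every interval includes 0. The estimates for signals as deposited run from -0.05 for Fcer1g to 0.67 for Coro1a.

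The differences of 5 of the 7 tested genes were above 0, with a median of 0.33, against a median of 0.01 over all tested probe sets, of which 52.0% were above 0. These counts describe the genes that passed the detection filter and support no direction for the group. After quantile normalization the count was again 5 of 7, with a median of 0.27, where 48.8% of all probe sets were above 0. In the authors' deposited table, which gives signed folds of WT over KO, the fold for Laptm5 was -1.51, negative where KO is higher. In the same authors' deposited table it was -1.66 for Cd68 and 1.26 for Fcer1g. The smallest of the authors' p-values over the 17 probe sets was 0.0867, for the dimmer Csf1r probe set.

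The hearts ranked alike in one gene after another. The mean level per heart, over the 7 tested genes on the log2(signal + 16) scale and centred per gene, was -0.66, 0.14, 0.98 and 0.19 in KO 1 to KO 4, against -0.42, -0.76, 1.04 and -0.51 in WT 1 to WT 4. WT 3 and KO 3 were therefore close to each other at the top, and KO 1 lay among the WT hearts at the bottom. The difference of KO minus WT was 0.33, smaller than the SD of either group (0.67 in KO and 0.81 in WT). It was 0.32 among the hearts of title number 541 (2 KO and 2 WT) and 0.51 among those of 569 (2 KO and 1 WT), and the number 570 holds WT 1 alone. Single hearts moved this value: it was 0.73 without WT 3, 0.60 without KO 1, 0.21 without WT 4, 0.13 without WT 2 and 0.06 without KO 3.

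**Figure D3:**
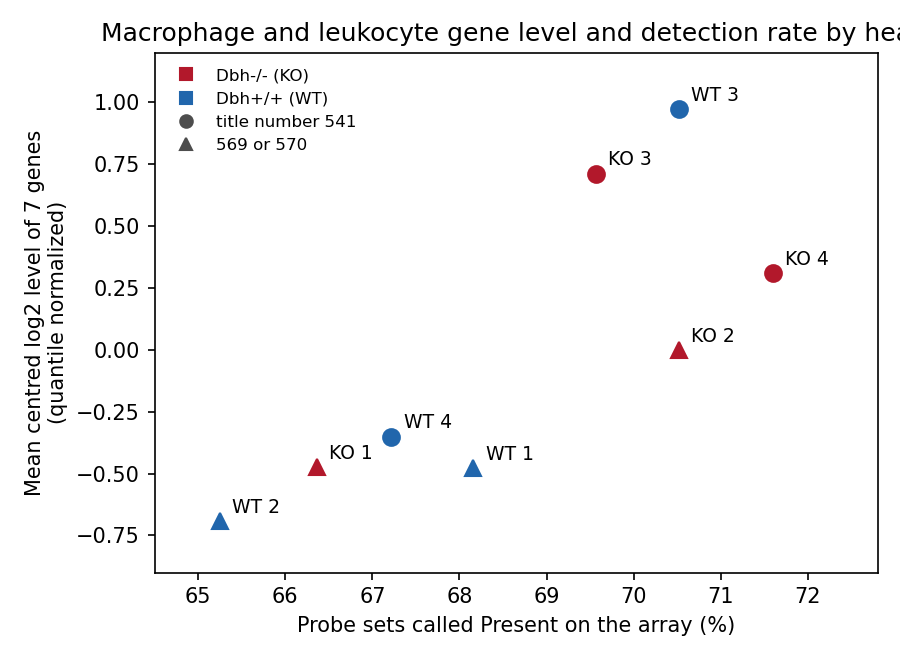
Mean centred log2 level of the 7 tested macrophage and leukocyte genes (vertical axis) against the percentage of all probe sets called Present on the same array (horizontal axis), 1 point per heart, KO in red and WT in blue. The 4 hearts with the highest gene level are also the 4 with the highest percentage Present.

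The level moved with the detection rate of the array. The percentage of probe sets called Present was 66.4, 70.5, 69.6 and 71.6 in KO hearts, against 68.2, 65.2, 70.5 and 67.2 in WT hearts. The 4 hearts with the highest leukocyte gene level (WT 3, KO 3, KO 4 and KO 2) were those with the 4 highest percentages. Of the 17 probe sets, 7, 11, 11 and 9 were Present in KO hearts, against 9, 4, 11 and 7 in WT hearts. The 5' to 3' ratio of the beta-actin control, a sign of RNA quality, was 0.510, 0.493, 0.390 and 0.401 in KO hearts, against 0.527, 0.483, 0.407 and 0.517 in WT hearts. The lowest ratios were those of KO 3, KO 4 and WT 3. The part of array detection and RNA quality in the gene levels was not tested.

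The 7 genes varied together across the hearts. After quantile normalization the 21 pairwise correlations over 8 hearts ran from 0.608 to 0.968 with a median of 0.82, and as deposited from 0.696 to 0.973. The highest after quantile normalization was that of Coro1a with Tyrobp. Each point is 1 array, so the genes share its RNA, scaling and detection rate. After quantile normalization, the mean level of the group was followed most closely by Tyrobp (r = 0.992) and Coro1a (r = 0.983), each a part of that mean, and least closely by Fcer1g (r = 0.837).

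Among 9119 other genes compared by the same measure, 551 correlated with the mean level above 0.8 and 110 above 0.9 over the 8 hearts. The closest was Plek, which encodes pleckstrin of platelets and leukocytes, at 0.982. Its signals were 42.9, 86.9, 276.7 and 106.8 in KO hearts, against 39.7, 27.9, 373.5 and 52.3 in WT hearts, with the top 4 hearts again WT 3, KO 3, KO 4 and KO 2. Prim2 (0.975), Cdca7l (0.972), Edn3 (0.971), Pax3 (0.971), Tmem14c (0.969), Pf4 (0.962) and Col6a3 (0.961) followed. Pf4 encodes a chemokine of platelets that embryonic macrophages also make. Its signals were 146.5, 244.9, 724.1 and 402.0 in KO hearts, against 167.7, 72.2, 740.4 and 127.8 in WT hearts. Pax3, a transcription factor of neural crest and muscle precursors, had 10.7, 22.1, 146.8 and 87.2 in KO hearts, against 5.24, 0.891, 203.6 and 10.9 in WT hearts. The genes nearest in pattern were thus not confined to leukocyte genes.

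**Figure D4:**
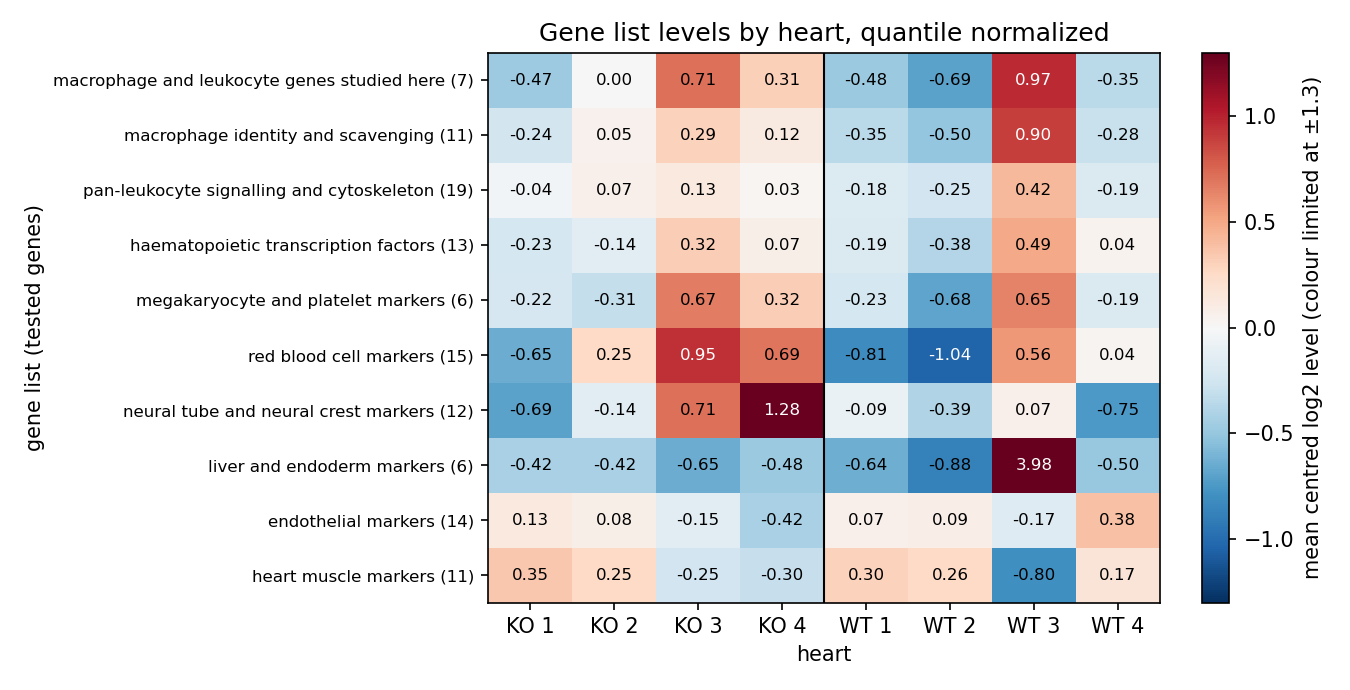
Mean centred log2 level after quantile normalization (colour and number) of each gene list (rows, with the number of tested genes) in each heart (columns, KO left and WT right). The 7 tested genes of the 10 studied here stand at 0.71 in KO 3 and 0.97 in WT 3, and the liver and endoderm markers at 3.98 in WT 3.

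Other gene lists of leukocytes held no gene that passed the test in either direction with all 8 hearts. Of 11 tested genes for macrophage identity and scavenging, 0 rose and 0 fell, with a median difference of 0.12. C1qb, a chain of complement C1q made by macrophages, averaged 98.3 ± 59.4 in KO hearts and 80.5 ± 131.6 in WT hearts, a log2 difference of 0.94 with a standard error of 0.50. Lyve1, a hyaluronan receptor of lymphatic endothelium and tissue macrophages, leaned the other way, with 22.65 ± 15.5 in KO hearts and 49.3 ± 38.6 in WT hearts and a log2 difference of -0.62 with a standard error of 0.32. Lyz2, the lysozyme of myeloid cells, averaged 70.2 ± 26.1 in KO hearts and 45.4 ± 22.7 in WT hearts. Of the same list, Cd14, C1qa, C1qc, Fcgr2b, Trem2, Cd163 and Maf were never Present. Of 3 tested microglia-enriched genes, 0 were called, with a median of 0.51, and Tmem119 averaged 61.95 ± 53.1 in KO hearts and 32.9 ± 41.9 in WT hearts. Of 8 genes for lysosomes and antigen handling, 0 were called, with a median of 0.12, and the class II genes H2-Aa, H2-Eb1 and Cd74 were never Present.

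Of 19 tested genes for leukocyte signalling and cytoskeleton, 0 were called and 16 had differences above 0, with a median of 0.10. After quantile normalization 14 were above 0, with a median of 0.05. Over all tested probe sets 52.0% were above 0 as deposited and 48.8% after quantile normalization. Ncf4, a subunit of the phagocyte oxidase, had the smallest unadjusted p of the list at 0.0482 (limma, adjusted p = 1). Its signals were 23.1, 51.1, 130.7 and 106.6 in KO hearts, against 15.4, 11.2, 114.3 and 32.9 in WT hearts. WT 3 again stood with the high KO hearts, and the log2 difference was 0.78 with a standard error of 0.38. Of 13 haematopoietic transcription factors 0 were called, with a median of -0.08, and Nr4a1, a nuclear receptor of patrolling monocytes and an immediate early gene, averaged 21.02 ± 10.04 in KO hearts and 42.4 ± 28.1 in WT hearts, a log2 difference of -0.57 with a standard error of 0.29. In the same list Tal1, needed for blood formation, averaged 352.0 ± 223.5 in KO hearts and 205.6 ± 89.9 in WT hearts. Of 11 tested growth factors, chemokines and their receptors 0 were called, with a median of 0.01. In that list Kitl, the ligand of the receptor KIT, averaged 252.1 ± 62.7 in KO hearts and 396.5 ± 148.6 in WT hearts, a log2 difference of -0.57 with a standard error of 0.32. There Cxcr4, the receptor of CXCL12, averaged 376.7 ± 181.9 in KO hearts and 243.6 ± 129.7 in WT hearts. Of the 16 ITAM and ITIM receptors and adaptors on the array only 3 were tested, and 0 of them were called.

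Without WT 3, the same fit called single genes of these lists, all higher in KO hearts, where 0.442% of all probe sets were called. C1qb had a difference of 1.78 (limma, adjusted p = 1.98e-05). Its signals were 20.5, 134.9, 153.0 and 84.9 in KO hearts, against 33.65, 6.42, 276.9 and 5.10 in WT 1 to WT 4. KO 1 thus lay below WT 1, so the groups overlapped without WT 3 as well. Of the macrophage identity list 2 of 11 genes rose, C1qb and Pf4, of the microglia-enriched list 1 of 3, Tmem119 (1.25, adjusted p = 0.00489), and of the signalling and cytoskeleton list 1 of 19, Ncf4 (1.255, adjusted p = 0.0121). The granulocyte marker Mpo was called as well, 1 of 2, as were 6 of 15 red blood cell markers and 4 of 12 neural markers. For every gene called in these lists KO 1 lay below a remaining WT heart, so those groups overlapped too. For Tmem119, KO 1 had 11.75 against 23.5 in WT 1, and for Mpo 4.16 against 10.8 in WT 1. In the other lists of blood and tissue genes 0 were called. With quantile normalization and without WT 3, 0 probe sets of the array were called.

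Markers of other blood cells were at low or uneven levels in the same hearts. The sums given here take in every listed gene on the array, tested or not. Of 15 lymphocyte markers on the array 2 were tested. The signals of all 15 summed to 79.1 to 121.5 in KO hearts and 84.7 to 101.6 in WT hearts. Cd3e, Cd3g, Rag1, Gzma and Klrd1 were never Present. Of 8 mast cell markers 1 was tested. The signals of all 8 summed to 35.7 to 47.9 in KO hearts and 28.7 to 59.0 in WT hearts. Cpa3, Mcpt1, Mcpt2 and Mcpt4 were never Present. The mast cell sum was highest in WT 1 (59.0), then WT 4 (47.96) and KO 1 (47.93). The lymphocyte sum was highest in KO 3 (121.5), then KO 4 (116.4) and WT 3 (101.6). Both sums rest mostly on untested genes near the low end of the array, where the order of hearts carries little information. Of 10 granulocyte markers 2 were tested. The signals of all 10 summed to 25.6 to 196.0 in KO hearts and 35.3 to 250.6 in WT hearts. Ctsg, Ltf, Camp and Ngp were never Present. Mpo, the peroxidase of granulocyte and monocyte precursors, reached 126.9 in KO 3 and 75.1 in WT 3. Of 8 megakaryocyte and platelet markers 6 were tested. The signals of all 8 summed to 271.7 to 912.7 in KO hearts and 203.4 to 786.7 in WT hearts. Their highest sums fell in KO 3 and WT 3, as did those of the granulocyte markers.

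Markers of other tissues also differed between hearts. Of 16 red blood cell markers 15 were tested and 0 were called, with a median of 0.67. The signals of all 16 summed to 19700 to 39710 in KO hearts and 17290 to 32510 in WT hearts, again highest in KO 3 and WT 3. All 11 heart muscle markers were tested, and their mean centred level after quantile normalization was lowest in WT 3 (-0.80), KO 4 (-0.30) and KO 3 (-0.25). Of 14 neural tube and neural crest markers, a list added after the values were seen, 12 were tested and 0 called, with a median of 0.68. The sums over all 14 were 456.2, 1919, 3912 and 3581 in KO hearts, against 2282, 1066, 2330 and 444.4 in WT hearts. The part of tissue makeup in the leukocyte gene levels was not tested.

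The upstream sequences of the 10 genes were searched on both strands for GAGGAA, the letters of a purine-rich site of the kind PU.1 binds. The search is a description only. RefSeq windows of the GRCm38.p6 build held 7 of the 10 genes. Within 250 bases upstream of a start, 4 of 7 held the letters (Aif1, Cd68, Laptm5 and Ptprc), against 25.9% of 27025 genes. The longer GAGGAAGT, which contains the shorter one, was in 0 of 7, against 2.79% of genes. A match is only a run of letters, and no binding was measured. The windows of the 3 tested genes with a match are shown 5′ to 3′ on the gene's strand, with the match in capitals. They are Laptm5 at chr4:130913066-130913315 on the plus strand, Cd68 at chr11:69666171-69666420 on the minus strand and Ptprc at chr1:138175306-138175555 on the minus strand.
Laptm5: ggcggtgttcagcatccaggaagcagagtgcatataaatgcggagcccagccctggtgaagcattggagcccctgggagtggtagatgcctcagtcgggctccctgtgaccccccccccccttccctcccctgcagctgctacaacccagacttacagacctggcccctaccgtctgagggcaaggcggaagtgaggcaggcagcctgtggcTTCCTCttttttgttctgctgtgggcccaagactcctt
Cd68: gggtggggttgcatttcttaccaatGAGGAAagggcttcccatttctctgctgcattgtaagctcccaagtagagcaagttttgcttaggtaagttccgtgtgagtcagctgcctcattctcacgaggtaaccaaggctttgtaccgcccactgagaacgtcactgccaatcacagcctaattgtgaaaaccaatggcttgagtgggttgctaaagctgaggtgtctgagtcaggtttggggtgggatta
Ptprc: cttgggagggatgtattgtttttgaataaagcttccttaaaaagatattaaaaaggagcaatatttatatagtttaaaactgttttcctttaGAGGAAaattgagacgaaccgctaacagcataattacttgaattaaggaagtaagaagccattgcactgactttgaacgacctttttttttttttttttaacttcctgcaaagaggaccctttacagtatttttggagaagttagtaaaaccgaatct
The match lies 38 bases before the start in Laptm5, where it reads TTCCTC because it is on the opposite strand, 225 bases before it in Cd68 and 158 bases before it in Ptprc. Of these genes Laptm5 was Present in all 8 hearts, while Cd68 was Present in 4 and Ptprc in 3. Coro1a, Fcer1g and Cx3cr1 had windows without these letters, as did another start of Ptprc. Csf1r, Tyrobp and Spi1 had no window.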

How the data were processed

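An array service hybridised total RNA of 8 single hearts. The deposited values are MAS5 signal intensity, linear and not log-transformed, per the file headers. The MAS5 version, scaling target and build are not given in the sources used here. The deposited export holds a detection call and a detection p-value per array, per the file headers. The authors' deposited comparison table holds a signed fold score (WT over KO) and an unadjusted p-value. The deposited quality report holds the Present fraction and 5' to 3' ratio values, per the file headers.

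Gene names came from the platform annotation for the 20393 of 22690 probe sets with 1 symbol. KO minus WT was fitted with limma 3.58.1 in R 4.3.3 (lmFit, then eBayes with trend) on log2(signal + 16), with neither normalization nor covariate, over 16292 probe sets Present in at least 3 of 8 arrays. Calls were made at a false discovery rate of 0.05 (Benjamini-Hochberg). For each gene the brightest tested probe set by mean log2 signal was used. Named were all 10 genes, up to 3 genes per list by unadjusted p, the 8 genes most like the mean level, and abundant markers. Csf1, Myh7 and the neural markers were named after their values were seen. The genes and lists were chosen with earlier results of these data known. Alternatives were quantile normalization, other pseudocounts and filters, title numbers as a block, and omission of each heart. The code was tested on simulated data. Precision is limited by the 4 hearts per group and the spread between them, and arrays have no read depth to report. The planned search of the adaptor proteins was not made here. WT 1 alone has the title number 570, so the block rests on 7 hearts, and the labels do not say what a number marks.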

Additional observations from a re-analysis of the deposited data

Results flagged for a closer look

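Each value here is the gap of 1 heart to the nearest of the other 3 hearts of its genotype, divided by the range of the 4, listed where it exceeded Dixon's 95% critical value. Of 36 groups of 4 hearts examined, 6 did so, and chance gives about 1 in 20 groups. WT 3 was the highest WT heart for both Coro1a probe sets, with ratios of 0.987 (1416246_a_at) and 0.981 (1455269_a_at), and for the Csf1r probe set 1423593_a_at, with 0.849. Among KO hearts, KO 1 was the lowest for Cd68, with 0.850, and KO 4 was the lowest for the Laptm5 probe set 1417721_s_at, with 0.837. WT 1 was the highest WT heart for Spi1, with 0.932, and was the only heart where Spi1 was called Present. The 2 Coro1a probe sets measure 1 gene and are not separate evidence.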

How the results depend on the processing

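Of 156 differences of the 7 tested genes under alternatives, 144 kept the sign found as deposited, 1 of them passing the test, and 12 turned. Some of the 144 repeat the deposited estimate, so their sign could not turn. These are the fits with other detection filters and the fit without the intensity trend. The mean over probe sets is another, for genes with a single tested probe set. Coro1a, Tyrobp, Laptm5 and Cd68 never turned. The count of probe sets called, 0 as deposited, was 2 with probe sets Present on all arrays and 60 within title number 541 (2 KO and 2 WT hearts). It was 40 with the title number as a replicate block, 0 with that block after quantile normalization and 0 with it as a random block. With each heart left out it was 0 to 72 (72 without WT 3, 30 without KO 1). The fits that gave 2, 40, 60 and 72 took the spread of each probe set almost wholly from the trend over all probe sets. The count of the 7 genes called was 0 to 1 with each heart left out, the 1 being Coro1a without WT 3, and 0 under the block, where Coro1a was 0.69. Ptprc turned to 0.15 with a pseudocount of 1 and 0.26 with quantile normalization without WT 3. With each heart left out, Ptprc ran from -0.20 to 0.34, Csf1r from -0.0529 (without KO 3) to 0.64 and Fcer1g from -0.35 to 0.35. Fcer1g was also 0.0601 with a pseudocount of 1, 0.0754 under the replicate block, 0.64 within 569 and 0.28 with quantile normalization without WT 3. The causes were not tested. The mean level difference of 0.33 was 0.40 under the replicate block, 0.58 with a pseudocount of 1 and 0.17 with 64. It was 0.64 with quantile normalization without WT 3, 0.26 over all 10 genes and 0.46 without WT 3 and KO 3. With probe sets Present on all arrays it was 0.65, but over Coro1a and Laptm5 alone. The value without WT 3 and KO 3 and the quantile fits without WT 3 were chosen after seeing the data. Signals near the low end of the array limit Cx3cr1, Aif1, Spi1, Ptprc, Cd68 and the dimmer Csf1r probe set. They limit Tyrobp too in its lowest hearts, and its difference was 0.99 with a pseudocount of 1 and 0.15 with 64.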
